A study of Mus musculus with 37 samples.

Results

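Posterior Hox genes of paralogue groups 10 to 13 were followed in the mouse tailbud between 6 and 11 somites. The 10 genes were Hoxa10, Hoxc10, Hoxd10, Hoxa11, Hoxc11, Hoxd11, Hoxd12, Hoxa13, Hoxb13 and Hoxd13. They were taken by name from the 39 Hox genes of the deposited log2 RPKM table, and each also has a row among the 35542 genes of the count table. Of the 12 mouse genes of these paralogue groups, Hoxc12 and Hoxc13 were not on the list and are given only as neighbours.

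RNA-seq was done on the tailbud of 37 C57BL/6/Cast F1 embryos at E8 to 8.5, with 1 library per embryo. The 21 Smchd1 wt embryos carried the genotype fl/+, came from mothers without the Cre transgene and served as controls. The 16 mat del embryos carried Smchd1 del/+ and came from mothers in which MMTV-Cre had deleted the gene in the oocyte, so that the oocyte supply of SMCHD1, a chromatin protein that takes part in gene silencing, was missing as well as the maternal allele. All fathers were Cast and gave an intact paternal allele to both genotypes. Genotype and somite number made 12 groups of 2 to 4 embryos. All 8 embryos with 6 somites were female, as were the mat del embryos with 8 or 9 somites, and the other groups held both sexes. The question put by the design was whether these late Hox genes come on at another stage or level without maternal SMCHD1.

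Hox genes code for homeodomain transcription factors that give cells their position along the body axis. They lie in clusters and are switched on in the order in which they lie, group 1 first and group 13 last, as the axis extends from the tailbud. Group 10 patterns the lumbar region, group 11 the sacral region, and group 13 genes are known for their role in ending the axis and in forming the hindgut, genital tubercle, digits and allantois vessels.

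The 4 posterior genes of the HoxD cluster lie side by side on chromosome 2, on the plus strand, and differed widely in level in these embryos, so their promoters are shown together. Each window runs from 250 bases before to 50 bases after a transcription start in RefSeq (GRCm38.p6). In capitals are matches on either strand to TTTAT, the core read by CDX factors, or AGGTCA, the half-site read by retinoic acid receptors. CTTTGAT, read by TCF/LEF factors of the Wnt pathway, was also searched and had no match in any window of the genes described here.
Hoxd13, chr2:74667975-74668274: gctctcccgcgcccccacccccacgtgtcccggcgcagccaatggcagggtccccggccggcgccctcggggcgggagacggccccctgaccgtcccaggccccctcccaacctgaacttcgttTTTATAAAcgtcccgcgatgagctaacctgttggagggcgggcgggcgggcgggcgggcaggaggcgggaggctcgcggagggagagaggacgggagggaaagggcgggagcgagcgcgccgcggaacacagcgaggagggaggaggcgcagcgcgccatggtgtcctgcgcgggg
Hoxd12, chr2:74674763-74675062: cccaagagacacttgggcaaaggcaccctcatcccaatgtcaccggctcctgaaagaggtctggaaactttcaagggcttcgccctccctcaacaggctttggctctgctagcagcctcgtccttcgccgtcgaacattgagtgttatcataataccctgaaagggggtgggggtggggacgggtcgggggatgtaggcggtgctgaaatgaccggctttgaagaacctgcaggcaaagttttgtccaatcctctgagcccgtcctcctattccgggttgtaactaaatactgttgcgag
Hoxd11, chr2:74679308-74679607: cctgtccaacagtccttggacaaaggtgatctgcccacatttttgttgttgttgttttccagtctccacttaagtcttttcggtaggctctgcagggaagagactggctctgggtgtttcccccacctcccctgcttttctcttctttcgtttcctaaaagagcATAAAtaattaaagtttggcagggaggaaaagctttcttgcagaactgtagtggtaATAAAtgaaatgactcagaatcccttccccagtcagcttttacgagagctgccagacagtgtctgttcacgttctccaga
Hoxd10, chr2:74691641-74691940: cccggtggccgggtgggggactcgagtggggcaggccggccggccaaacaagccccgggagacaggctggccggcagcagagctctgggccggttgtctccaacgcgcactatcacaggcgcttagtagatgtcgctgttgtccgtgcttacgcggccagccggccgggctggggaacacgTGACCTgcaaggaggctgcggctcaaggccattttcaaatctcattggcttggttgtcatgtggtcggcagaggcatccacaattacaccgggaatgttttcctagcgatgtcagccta

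The Hoxd13 window held 2 matches to TTTAT on opposite strands that overlap, the Hoxd11 window, at the first of 2 annotated starts, held 2, and the Hoxd10 window held 1 match to AGGTCA. None of the 3 motifs was found in the Hoxd12 window or in the window at the other annotated Hoxd11 start, which is not shown. Among 32851 promoter windows of the same length, 40.0% held TTTAT, 16.3% held AGGTCA and 3.73% held CTTTGAT, so the first 2 are common. The Hoxd13 window was 74.3% G and C with 37 CpG pairs, and the Hoxd12 window 55.0% with 13, where the median over all windows was 52.7% and 7. Windows were found for 7 of the 10 genes (Hoxa10, Hoxa11, Hoxa13 and the HoxD genes), and outside HoxD both Hoxa10 windows held TTTAT.

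The genes are spread over 4 clusters (GRCm38, coordinates of the deposited table). Hoxa10 (chr6:52231197-52240854), Hoxa11 (chr6:52242106-52245810) and Hoxa13 (chr6:52257694-52260880) lie on the minus strand of chromosome 6. Hoxd13 (chr2:74668310-74671599), Hoxd12 (chr2:74675013-74677705), Hoxd11 (chr2:74679557-74687016) and Hoxd10 (chr2:74691924-74695105) follow each other on chromosome 2. Hoxc11 (chr15:102954427-102957708) and Hoxc10 (chr15:102966796-102971893) lie on chromosome 15, and Hoxb13 (chr11:96194316-96197447) on chromosome 11. In GENCODE M21, exons of 4 of them share bases with another gene. The overlap is largest for Hoxa11, where Hoxa11os on the opposite strand covers 35.0% of the exon bases. Hoxd11 shares 10.8% and Hoxd10 5.73% of exon bases with Gm28309, and Hoxc10 shares 8.70% with Hoxc5, all on the same strand. The methods name a stranded kit and another kit, and do not say which made the tailbud libraries. It is therefore not known if reads of Hoxa11os were kept apart from those of Hoxa11. For partners on the same strand, reads of shared bases cannot be told apart by strand with either kit.

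Library totals ran from 0.916 to 80.6 M counts (M, 1000000 counts) with a median of 12.8 M, and 1 count was worth over 1 CPM (counts per 1000000, with library sizes scaled by TMM) in the shallowest library alone, mat del replicate 3 at 6 somites. Smchd1 had 149 ± 22.8 CPM in wt (SD, n = 21) and 88.7 ± 13.3 CPM in mat del embryos (SD, n = 16). Tailbud markers were present throughout, with 100.2 to 362 CPM of T and 224 to 432 CPM of Cdx2. Of the 6 segmented somite markers, Pax1 had 0 counts in all 37 embryos and Uncx in 34. Pax3 ran from 3.79 to 14.7 CPM, Meox1 from 0 to 38.6, Tcf15 from 0 to 6.99 and Meox2 from 0 to 2.52 CPM. A pair of libraries, mat del replicates 1 and 2 at 6 somites, had 1.82 to 2.77% of counts at 2 ribosomal RNA loci, against 0.176 to 1.28% in the other 35. Results that move without them are given both ways.

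Compared per length, the posterior genes fell into 3 tiers. Hoxa10 had the highest median deposited log2 RPKM over 37 embryos (2.14, range -1.09 to 3.10), followed by Hoxc10 (1.54), Hoxd13 (1.04), Hoxa11 (1.02), Hoxd10 (0.12) and Hoxa13 (-0.16). Hoxc11 (-1.60) and Hoxd11 (-1.64) formed a lower tier. Hoxb13 (-4.88) and Hoxd12 (-5.20) were at the bottom, where most values come from 0 counts. Within an embryo, the mean difference between neighbours in this order was smaller than its SD over the 37 embryos for 7 of 9 pairs. This compares the step with the variation between embryos and is not a test of the mean. Among those pairs the first gene was higher in 17 to 37 of 37 embryos. The 37 of 37 belong to Hoxb13 over Hoxd12, where 26 and 36 of the values come from 0 counts. Where both genes have 0 counts, the sign follows the lengths that the deposited values imply, 2248 and 2572 bases. The step from Hoxa13 down to Hoxc11 (1.74 ± 1.03 in log2 RPKM, SD, n = 37, Hoxa13 higher in 34 of 37) exceeded its SD. So did the step from Hoxd11 down to Hoxb13 (2.60 ± 1.84, higher in 31 of 37), which rests mainly on values from 0 counts of Hoxb13.

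**Figure D1:**
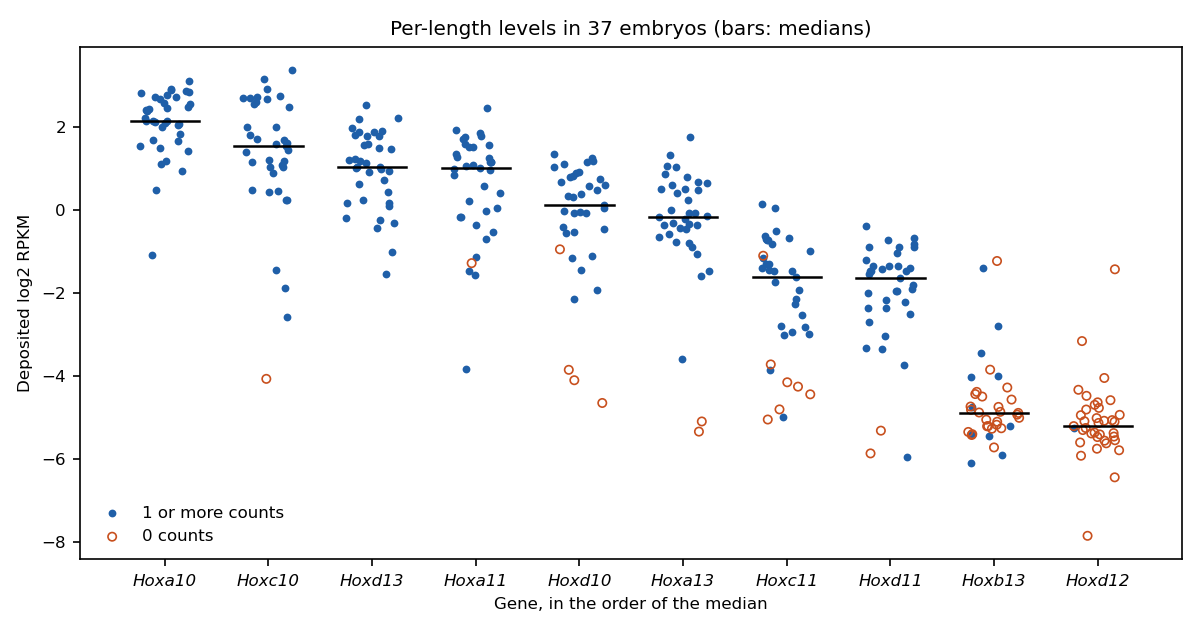
Deposited log2 RPKM (y axis) of the 10 posterior Hox genes (x axis, in the order of their medians), 1 point per embryo and a bar at the median of 37. Filled points come from 1 or more counts and open points from 0 counts, which make up 36 of 37 values of Hoxd12 and 26 of 37 of Hoxb13.

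The order within the clusters was not the same from cluster to cluster. In HoxA the level fell towards the 5 prime end, since Hoxa10 exceeded Hoxa11 in 36 of 37 embryos by a median of 1.61 in log2 RPKM, and Hoxa11 exceeded Hoxa13 in 31 of 37 by 0.89. In HoxC, Hoxc10 exceeded Hoxc11 in 37 of 37 embryos by a median of 3.29. In HoxD the last gene stood above those before it. Hoxd13 exceeded Hoxd10 in 34 of 37 embryos by a median of 1.02, Hoxd11 in 36 of 37 by 2.95, and Hoxd12 in 37 of 37 by 6.49, where 36 of the Hoxd12 values come from 0 counts. The group 9 gene exceeded the group 10 gene of its own cluster in all 37 embryos, by a median of 2.39 in HoxA, 2.06 in HoxC and 3.95 in HoxD.

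Log2 RPKM values near the bottom have to be read with the counts. Of the 370 values of these genes, 79 belong to a gene with 0 counts, 62 of them to Hoxd12 and Hoxb13. The deposited number for a count of 0 was worth 0.876 to 0.905 of a read in that library, so it follows depth. For Hoxd12 at 0 counts it ran from -7.84 in the deepest library to -1.43 in the shallowest, with no read in either. Counts were therefore used wherever a gene was near 0.

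Hoxd12 gave 1 count in 539.5 M counts over all embryos, in wt replicate 4 at 10 somites. That is 0.00185 CPM of the pooled libraries (exact 95% Poisson interval 4.69e-05 to 0.0103, counting error only). Its direct neighbours Hoxd13 and Hoxd11 gave 3367 and 783 counts in the same libraries. In the other 36 embryos it had 0 counts, and the limit that 0 counts allow (3 counts) was 0.0372 CPM in the deepest library and 3.27 CPM in the shallowest.

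Hoxb13, the only HoxB gene beyond group 9, gave 21 counts, in 11 of 37 embryos. At 6 to 8 somites 3 of 11 wt and 2 of 9 mat del embryos had a count, with 4 and 7 counts in all. Of the 7, 6 came from mat del replicate 1 at 6 somites, one of the pair with high ribosomal RNA shares. At 9 to 11 somites 2 of 10 wt and 4 of 7 mat del embryos had a count, with 4 and 6 counts. The difference in mean CPM, mat del minus wt, was 0.0442 at 9 to 11 somites (p = 0.0747, exact permutation test, two-sided, n = 7 and 10) and 0.0499 at 6 to 8 somites (exact permutation p = 0.823, n = 9 and 11). The later one passed 0.05 (exact permutation p = 0.0440) when mat del replicate 2 at 9 somites or replicate 2 or 3 at 10 somites, all with 0 counts, was left out. Between the windows, Hoxb13 means were 0.0563 and 0.00898 CPM in wt (permutation test, p = 0.309) and 0.106 and 0.0531 CPM in mat del (exact permutation p = 0.925). All but 1 embryo had at most 3 Hoxb13 counts, and no difference was detectable at this depth. For Hoxd12 all 4 such comparisons gave permutation p-values of 0.951 or 1.0, exact but for the wt windows.

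Onset was set at the first somite number from which the median CPM of a group was at least 1 at every later stage. By this measure 6 of the 10 genes were on at 6 somites in wt, namely Hoxa10, Hoxc10, Hoxd10, Hoxa11, Hoxa13 and Hoxd13. Hoxd11 followed at 8 somites, and Hoxc11, Hoxd12 and Hoxb13 did not reach the level by 11 somites. In mat del embryos 5 genes were on at 6 somites, the same ones without Hoxd10. By this measure Hoxd10 came on at 9 somites, although its median was already 1.32 CPM at 7 somites. At 8 somites its median fell to 0.868 CPM, from 2 embryos with 1.74 and 0 CPM. Hoxd11 followed at 7 and Hoxc11 at 11 somites. The Hoxc11 median was 1.04 CPM at 9 and 0.481 CPM at 10 somites. The gap for Hoxd10 depended on the level asked. At 0.5 CPM its onset was 6 somites in wt and 7 in mat del, and at 2 CPM it was 8 and 9. For Hoxd11 the genotypes had the same onset at both of these levels, 6 and 11 somites. The onset is a description of medians over 2 to 4 embryos, and asking it of every embryo left 2 genes on at 6 somites in each genotype, Hoxa10 and Hoxa11 in wt and Hoxa10 and Hoxd13 in mat del.

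**Figure D2:**
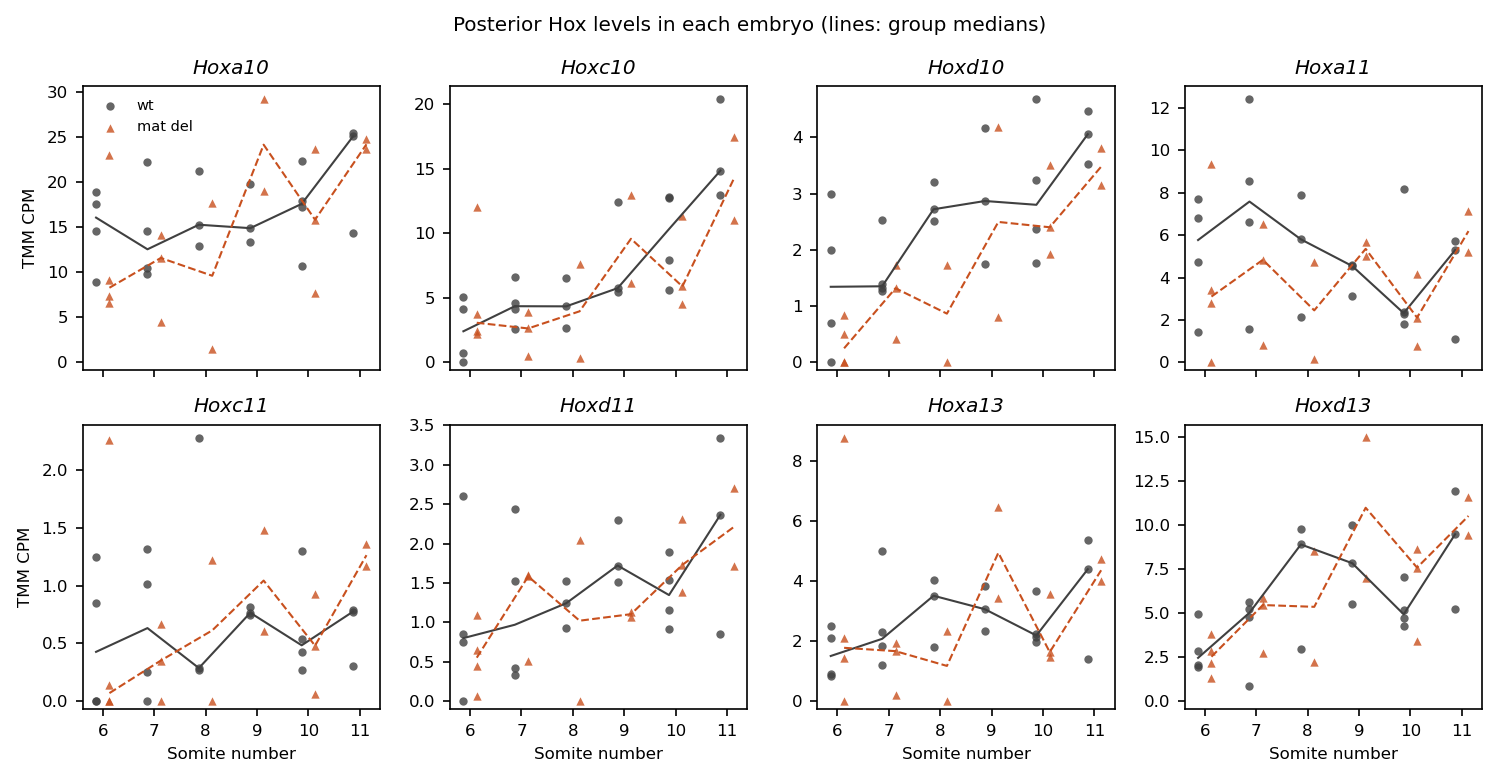
TMM CPM (y axis, scaled per gene) of the 8 posterior Hox genes that passed the count filter, against somite number (x axis), with 1 circle per wt and 1 triangle per mat del embryo and lines through the group medians. Hoxc10 runs from 0 to 20.4 CPM, with its highest value at 11 somites, whereas Hoxa11 in wt has its highest value, 12.4 CPM, at 7 somites.

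Change with stage was tested as a slope of the counts on somite number, with sex in the model, in each genotype (edgeR quasi-likelihood test, Benjamini-Hochberg adjustment over all genes). Hoxd12 and Hoxb13 did not pass the filter on low counts, and the other 8 genes did. Hoxc10 was the 1 gene of 8 called as rising in wt, and Hoxd13 was the 1 gene of 8 called as rising in mat del embryos. No member was called as falling in either genotype. Slopes were above 0 for 7 of 8 genes in wt and 8 of 8 in mat del. In mat del the slopes of Hoxc10 and Hoxd10 were steeper than that of Hoxd13 but did not pass. In wt, 6.64% of 15148 genes tested changed with stage and 3.13% rose, and in mat del 3.07% of 15477 changed and 1.93% rose. At an unadjusted p under 0.05 the counts were 3 of 8 in wt (all genes 21.4%) and 5 of 8 in mat del (all genes 17.5%). The median slope of the 8 was 0.16 per somite on the log2 scale in wt and 0.35 in mat del, where the median of all genes was -0.0018 and 0.0024. DESeq2 called 3 of 8 in wt (Hoxc10, Hoxd10 and Hoxd13) and 2 of 8 in mat del (Hoxd13 and Hoxd10). The shares of all genes above are those of edgeR. The share that DESeq2 called is not given here, so its counts cannot be set against a background.

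Among group 10 genes, Hoxc10 had the steepest slope in wt. In wt embryos with 6 somites it stood at 4.11, 0, 5.06 and 0.725 CPM in replicates 1 to 4, and at 11 somites at 20.4, 12.9 and 14.9 CPM. Every wt embryo with 11 somites was above every wt embryo with 6 to 8 somites, whose highest value was 6.65 CPM. The slope was 0.48 per somite on the log2 scale (SE 0.0903, n = 21, edgeR adjusted p = 0.00171), a 1.40-fold rise with each somite. In mat del embryos Hoxc10 had 2.41, 3.75, 12.1 and 2.24 CPM at 6 somites and 11.0 and 17.4 CPM at 11 somites. The 12.1 CPM rests on 11 counts in the shallowest library. The slope in mat del embryos was 0.50 (SE 0.137, n = 16, edgeR adjusted p = 0.0550). Without that library it was 0.55 (edgeR adjusted p = 0.0248), and it also passed without replicate 2 at 8 somites (0.0173), replicate 2 at 10 somites (0.0448) or replicate 3 at 10 somites (edgeR adjusted p = 0.0496).

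Hoxd10 was lower than Hoxc10 and had counts of 0 in 4 embryos. In wt it had 0.699, 3.001, 1.99 and 0 CPM at 6 somites, and 4.48, 3.53 and 4.06 CPM at 11 somites. The mat del embryos had 0, 0.505, 0 and 0.839 CPM at 6 somites, and 3.15 and 3.81 CPM at 11 somites. The genotypes overlapped at 6 somites, and replicate 3 among the mat del embryos is the shallowest library, where 0 counts allow up to 3.27 CPM. The slope was 0.29 in wt (SE 0.0898, edgeR adjusted p = 0.0564) and 0.53 in mat del (SE 0.159, edgeR adjusted p = 0.0789).

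Hoxa10, the highest of these genes, was on in every embryo from the first stage. It ran from 8.94 to 22.2 CPM (median 14.6) in wt embryos with 6 to 8 somites and from 10.7 to 25.5 CPM (median 17.6) with 9 to 11 somites, so the windows overlapped almost fully. In mat del embryos it ran from 1.55 to 23.1 CPM (median 9.18) and then from 7.68 to 29.3 CPM (median 23.7). The slopes were 0.093 in wt (SE 0.0467, edgeR adjusted p = 0.252) and 0.26 in mat del (SE 0.113, edgeR adjusted p = 0.243).

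The group 11 genes gave no slope past the threshold. Hoxa11 was the one gene of 8 with a negative slope in wt (-0.17 per somite, SE 0.106, edgeR adjusted p = 0.354), with a median of 6.62 CPM at 6 to 8 and 3.85 CPM at 9 to 11 somites. In mat del embryos its medians were 3.40 and 5.03 CPM, with a slope of 0.049 (SE 0.152, edgeR adjusted p = 0.916). Hoxd11 had medians of 0.931 and 1.63 CPM in wt and 0.652 and 1.72 CPM in mat del, with slopes of 0.18 and 0.35 (edgeR adjusted p = 0.362 and 0.235). Hoxc11 had 0 counts in 7 embryos, all with 6 to 8 somites, and at most 2.28 CPM. Its slopes were 0.016 in wt (SE 0.155, edgeR adjusted p = 0.969) and 0.29 in mat del (SE 0.229, edgeR adjusted p = 0.558).

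Of the group 13 genes, Hoxd13 was the most abundant and had counts in all 37 embryos. In mat del it had 2.86, 1.30, 2.19 and 3.82 CPM at 6 somites, 2.76, 5.89 and 5.46 at 7, 8.53 and 2.20 at 8, 6.98 and 15.01 at 9, 8.66, 3.44 and 7.59 at 10, and 9.45 and 11.6 at 11 somites. The embryos with 11 somites were thus all above those with 6 or 7 somites, and among the 7 embryos with 8 to 10 somites 2.20 CPM was the lowest and 15.01 CPM the highest value. The slope was 0.37 per somite (SE 0.0971, n = 16, edgeR adjusted p = 0.0403), or 1.30-fold. With the pair high in ribosomal RNA left out it was 0.30 (edgeR adjusted p = 0.155) and the call was lost. Leaving out single mat del embryos lost it for 11 of 16, with edgeR adjusted p-values of 0.0188 to 0.117 over the 16. It held without replicate 2 at 7, 9 or 10 somites and without either embryo with 8 somites.

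In wt, Hoxd13 had 1.94, 2.87, 4.98 and 2.05 CPM at 6 somites and 9.49, 5.23 and 11.9 CPM at 11 somites. Its slope was 0.25 (SE 0.0831, edgeR adjusted p = 0.0725). Hoxa13, which acts with Hoxd13 in the distal limb and in the allantois, had medians of 2.10 and 2.70 CPM in the wt windows and 1.67 and 3.57 CPM in the mat del windows. Its slopes were 0.15 in wt (SE 0.0839, edgeR adjusted p = 0.324) and 0.34 in mat del (SE 0.201, edgeR adjusted p = 0.396).

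**Figure D3:**
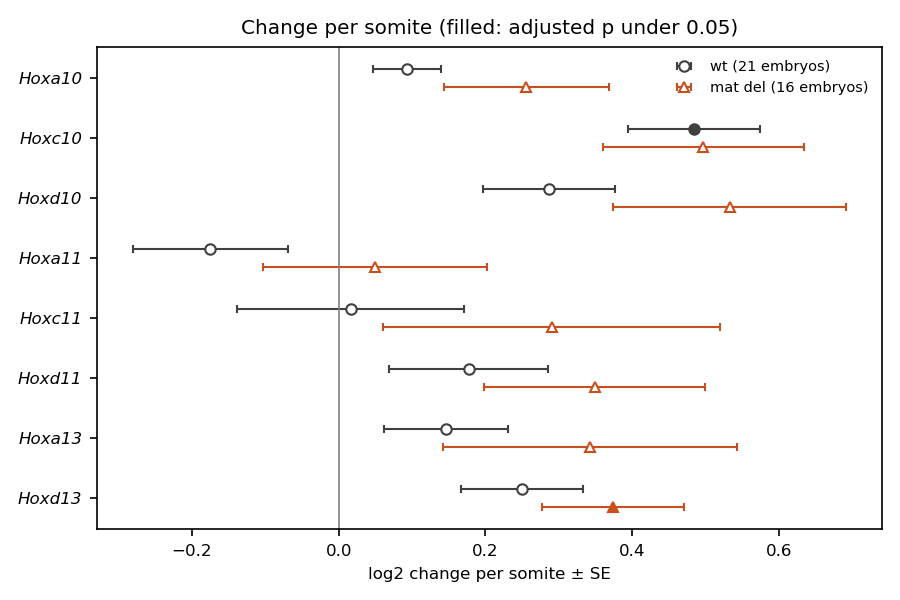
Slope of each gene on somite number (x axis, log2 change per somite, with SE bars) in 21 wt embryos (circles) and 16 mat del embryos (triangles), from separate edgeR fits. Filled symbols passed an adjusted p of 0.05: Hoxc10 in wt at 0.48 and Hoxd13 in mat del at 0.37.

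Markers of other tissue were also followed over the stages. The summed level of the 6 visceral endoderm markers went from a median of 1280 CPM (range 420.3 to 3851) at 6 to 8 somites to 164 CPM (4.62 to 2880) at 9 to 11 somites in wt, and from 1075 (509 to 1760) to 133 CPM (10.7 to 2903) in mat del. The 6 primitive erythroid markers went from a median of 108 to 878 CPM in wt and from 114 to 715 CPM in mat del. The ranges of the windows overlapped. By edgeR, 2 of 6 visceral endoderm markers fell in wt (Apob and Ttr) and 0 in mat del, and 1 of 6 erythroid markers, Hbb-y, rose in each genotype (all genes 6.64% changed in wt and 3.07% in mat del). An unadjusted p under 0.05 was reached by 6 of 6 visceral endoderm markers in wt and 0 in mat del. For erythroid markers it was 4 of 6 in wt and 3 of 6 in mat del (all genes 21.4% and 17.5%). None of the 6 visceral endoderm slopes was above 0 in either genotype. The part of these tissues in the slopes was not tested.

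The slopes themselves did not differ by genotype past the threshold. In a single model of all 37 embryos with an interaction of genotype and somite number, 0 of 8 genes were called, 0 had an unadjusted p under 0.05 and DESeq2 called 0 (all genes tested 0.0% by edgeR, and 3.92% at the unadjusted level). The difference, mat del minus wt, was above 0 for 7 of 8 genes, which share embryos, with a median of 0.17 per somite. For Hoxc10 it was -0.018 (SE 0.165) in this joint fit, while the separate fits gave 0.50 in mat del and 0.48 in wt. The widest gap was that of Hoxd10, 0.25 per somite (SE 0.173, edgeR adjusted p = 1.0), with an approximate 95% interval of -0.09 to 0.59.

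Over all stages, no posterior Hox gene passed the test between mat del and wt embryos. With somite number and sex in the model, edgeR called 0 of 8 genes and DESeq2 0, where 0.0125% of 15978 genes were called. One gene, Hoxd10, had an unadjusted p under 0.05 (all genes 5.67%). It was lower in mat del by 0.63 on the log2 scale (SE 0.311, edgeR adjusted p = 0.867), which is 0.646 of the wt level. The other 7 ran from -0.28 for Hoxa11 (SE 0.328) to 0.12 for Hoxd13 (SE 0.203), and the median of the 8 was -0.19 beside -0.0023 for all genes.

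At 6 to 8 somites all 8 estimates were below 0, and none passed. Their median was -0.59 on the log2 scale, beside -0.0037 over 15652 genes, and edgeR and DESeq2 each called 0 of 8 (all genes 0.00639%). The 8 genes were read in the same embryos, so their signs are not independent. In the model of single stages 3 of 8 estimates were above 0 at 6 somites and 2 of 8 at 7 somites. At 8 somites, with 2 mat del embryos, it was 0 of 8. Hoxd10 was the 1 gene with an unadjusted p under 0.05 (all genes 7.77%), at -1.26 (SE 0.569, n = 9 and 11, edgeR adjusted p = 0.614). Hoxa11 (-0.77, SE 0.461), Hoxa13 (-0.76, SE 0.610) and Hoxa10 (-0.59, SE 0.304) came next. Hoxc11, Hoxd11, Hoxc10 and Hoxd13 were at -0.58, -0.54, -0.28 and -0.16, each less than its SE from 0.

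Markers of other tissue were compared in the same fit at 6 to 8 somites, and none passed the adjusted threshold by edgeR. Over all genes 7.77% had an unadjusted p under 0.05. All 6 visceral endoderm markers were below 0 (median -0.58, 3 with an unadjusted p under 0.05), as were 5 of 6 lateral plate and posterior mesoderm markers (median -0.32, 2 under 0.05) and 5 of 5 endothelial markers (median -0.23, 2 under 0.05). The 3 segmented somite markers tested, Meox1, Tcf15 and Pax3, were above 0 (median 1.499, 3 under 0.05). Of the allantois markers 5 of 7 were below 0 (median -0.10, 0 under 0.05), and of the tailbud markers 9 of 10 were above 0 (median 0.14, 2 under 0.05). Their part in the Hox estimates was not tested.

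Some mat del embryos with 6 to 8 somites held few reads of any posterior Hox gene, and so did 1 wt embryo. Summed over the 10 genes, mat del replicate 2 at 8 somites had 4.24 CPM and mat del replicate 1 at 7 somites 9.73 CPM, followed by wt replicate 4 at 6 somites with 14.01 CPM, out of a range of 4.24 to 76.3 CPM over all embryos. The same 3 had 1.30, 3.48 and 6.28 CPM of Tbx4, the T-box gene of the allantois and hindlimb field, against medians of 36.2 CPM in wt and 27.8 CPM in mat del with 6 to 8 somites. Those 3 embryos had 1317, 1395 and 1197 CPM of the 10 tailbud markers, within the 680 to 1705 CPM of all embryos. The next lowest embryo, mat del replicate 2 at 6 somites, did not share the low Tbx4. It had 15.9 CPM of the posterior genes and 27.4 CPM of Tbx4. Fewer cells of a type and less RNA per cell cannot be told apart in tissue libraries.

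**Figure D4:**
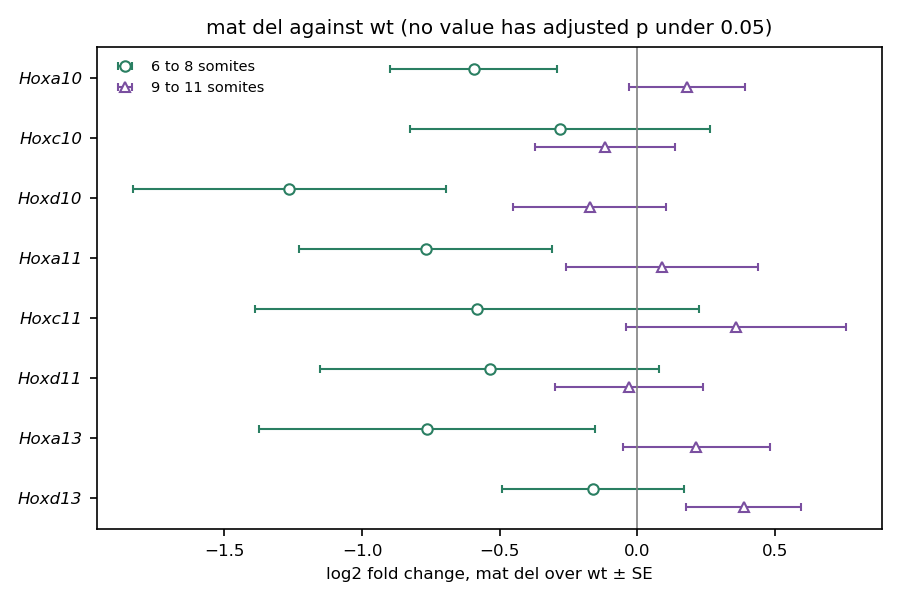
Log2 fold change of mat del over wt (x axis, with SE bars) for 8 posterior Hox genes (y axis) at 6 to 8 somites (circles, 9 mat del and 11 wt embryos) and at 9 to 11 somites (triangles, 7 and 10). All 8 early estimates lie below 0, from -1.26 to -0.16, the late ones lie between -0.17 and 0.39, and none passed an adjusted p of 0.05. The genes were read in the same embryos, so their signs are not independent.

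At 9 to 11 somites 5 of 8 estimates were above 0 and their median was 0.14, beside 0.0064 over 15757 genes. EdgeR called 0 of 8 and DESeq2 0 (all genes 0.00635%), and 0 of 8 had an unadjusted p under 0.05 (all genes 1.88%). Hoxd13 had the smallest p, at 0.39 (SE 0.209, n = 7 and 10, edgeR adjusted p = 1.0). Hoxd10 was at -0.17 (SE 0.279). The difference between the windows was tested in 1 model of all embryos. It was above 0 for all 8 genes, with a median of 0.73, but edgeR called 0 of 8, DESeq2 0, and 0 had an unadjusted p under 0.05 (all genes 0.0% and 3.55%). The largest, that of Hoxd10, was 1.04 (SE 0.616, edgeR adjusted p = 1.0). Here too the 8 genes share embryos, so their signs are not independent.

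Within single stages none of 48 comparisons of a gene was called (8 genes at 6 stages, edgeR with 12 groups and sex, DESeq2 also 0, all genes 0.0%). One, Hoxd10 at 8 somites, had an unadjusted p under 0.05, where 3.21% of all gene and stage comparisons did. Its wt embryos had 2.72, 2.52 and 3.21 CPM, and the mat del embryos 1.74 and 0 CPM. The groups did not overlap, and the log2 change was -1.86 (SE 0.910, edgeR adjusted p = 1.0). Groups were apart in 4 of the 48 comparisons, 2 with mat del lower (Hoxd10 at 8 and Hoxd11 at 9 somites) and 2 with mat del higher (Hoxa11 at 9 and Hoxc11 at 11 somites), and all 4 had 2 mat del and 3 wt embryos. Over all genes and stages 11.1% were apart.

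In the deposited log2 RPKM table, the mean of Hoxa13 at 6 to 8 somites was -0.31 in wt and -1.59 in mat del, a difference of -1.29. It includes 2 mat del embryos with 0 counts, replicate 2 at 6 somites and replicate 2 at 8 somites, in libraries of 14.3 and 12.1 M counts. For Hoxd10 in the same window the difference was -1.33, with 0 counts in 1 wt and 3 mat del embryos, one of them the shallowest library. The values that stand for 0 counts follow depth, as described above. Without those values the difference was -0.25 for Hoxa13 (11 wt and 7 mat del embryos) and -0.97 for Hoxd10 (10 and 6). For Hoxa13 this leaves out only mat del embryos, and the lowest ones, so the difference shrinks by that choice. The limits that 0 counts allow in those 2 libraries are 0.209 and 0.247 CPM. Both lie below the lowest Hoxa13 value of wt embryos in this window, 0.845 CPM. Hoxa10 and Hoxd13 had no 0 counts, and their differences in this window were -0.78 and -0.14.

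Genes around and upstream of the posterior Hox genes were counted from fixed lists. Of 13 neighbours at the 5 prime ends of the clusters, 9 were tested over all stages. By edgeR 0 differed by genotype, and 0 had an unadjusted p under 0.05 (all genes 0.0125% and 5.67%). With stage in wt, 4 of 9 rose and 0 fell (all genes 3.13% rising). These were Hoxc9 (0.39 per somite, SE 0.0492, edgeR adjusted p = 3.67e-05), Hoxa9 (0.29, SE 0.0396), Hoxd9 (0.17, SE 0.0288) and Evx2 (0.48, SE 0.145, edgeR adjusted p = 0.0461), a homeobox gene beside Hoxd13. In mat del 5 of 9 rose (all genes 1.93%), the same 4 and Mtx2, which lies past the other end of HoxD. The group 9 gene of HoxB did not follow, with Hoxb9 at -0.021 per somite in wt (SE 0.0259, edgeR adjusted p = 0.691). Of the remaining neighbours, Hoxc12 had 2 counts, Hoxc13 82, and the lncRNAs Hottip and Hotair 3 each in all libraries together.

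Among 22 regulators of posterior Hox onset, 21 were tested. With stage in wt 6 rose and 3 fell, where 6.64% of all genes changed and 3.13% rose. Gdf11, the ligand that sets the trunk to tail transition, rose by 0.24 per somite on the log2 scale (SE 0.0417, edgeR adjusted p = 0.000908), and Cyp26a1, which clears retinoic acid, by 0.20 (SE 0.0400). Wnt5a, Smad3 and the receptors Tgfbr1 and Acvr2a rose by 0.093 to 0.15. Pou5f1 fell by 0.53, Cdx1 fell by 0.34 and Nr6a1, a receptor of the trunk programme, fell by 0.22 per somite. In mat del 4 rose and 3 fell, Gdf11, Cyp26a1, Wnt5a and Tgfbr1 against the same 3 (all genes 3.07% changed, 1.93% rose). By genotype 0 of 21 were called over all stages by edgeR, with 2 at an unadjusted p under 0.05 (all genes 0.0125% and 5.67%). These were Fgf8 (0.32, SE 0.117) and Cdx1 (0.31, SE 0.134), both higher in mat del (edgeR adjusted p = 0.867 for each).

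Of 9 Hox cofactors, 2 rose with stage in wt (Pbx2 by 0.065 and Pknox1 by 0.097 per somite, edgeR adjusted p = 0.00514 and 0.00521) and 0 in mat del. Over all genes 3.13% rose in wt and 1.93% in mat del. Of 22 Polycomb and Trithorax genes tested, 1 fell in wt (Cbx7, -0.22 per somite, SE 0.0646, edgeR adjusted p = 0.0430) and 0 changed in mat del. The share of all genes that changed was 6.64% in wt and 3.07% in mat del. Neither list had a gene called by genotype over all stages by edgeR, and 0 and 1 of their genes had an unadjusted p under 0.05 (all genes 5.67%).

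The posterior genes did not vary as one set from embryo to embryo. Spearman correlations of log2 CPM over the 37 embryos between the 8 genes ran from 0.0036 for Hoxc10 with Hoxa11 to 0.74 for Hoxd10 with Hoxd13. Points share stage, depth and tissue, so they are given as descriptions. Among 15978 genes, Hoxc10 was most like 2610528A11Rik (0.85), Hoxd8 (0.84) and Hoxc9 (0.84), and Hoxd10 most like Skil (0.86) and Hoxd8 (0.84). Hoxd13 was most like Cnn3 (0.87) and Nr3c1 (0.84), with Isl1 (0.81) and Evx2 (0.81) among its nearest 5, and Hoxa13 was most like Rgs5 (0.80) and Isl1 (0.80). Isl1 is a LIM homeobox gene of the posterior lateral mesoderm. Hoxa10 was nearest to Pitx1 (0.75), a hindlimb and allantois gene, and Hoxc11 to Bambi (0.80). Hoxd11 was nearest to Gm28309 (0.81), with which it shares exon bases.

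Among the posterior genes, Hoxa11 was nearest to Hoxc11 (0.67) and Hoxa10 (0.61). Its nearest genes overall were Hoxa11os (0.95), which overlaps it on the opposite strand, Spin2c (0.84) and Plac1 (0.80). After removing the mean of each of the 12 groups, the correlation with Spin2c was 0.92. Spin2c is on the list of allantois and extraembryonic mesoderm markers, and its correlation with Hoxa11 was 0.85 over 21 wt and 0.72 over 16 mat del embryos. Spin2c was named as one of the 5 genes most like Hoxa11, so these values are high by that choice. Of the 8 genes on the list, correlations with Hoxa11 are given for Spin2c and Tbx4 only, both picked after their values were seen. Tbx4 of the same list gave 0.71 with Hoxa11 and 0.67 with Hoxc11 over 37 embryos, 0.47 with Hoxa13, 0.37 with Hoxa10 and 0.27 with Hoxd13. It gave 0.038 with Hoxc10, -0.019 with Hoxd10 and 0.020 with Hoxd11. Spin2c gave 0.51 with Hoxc11 and 0.39 with Hoxa10, and between -0.18 and 0.21 with the other 5 genes.

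**Figure D5:**
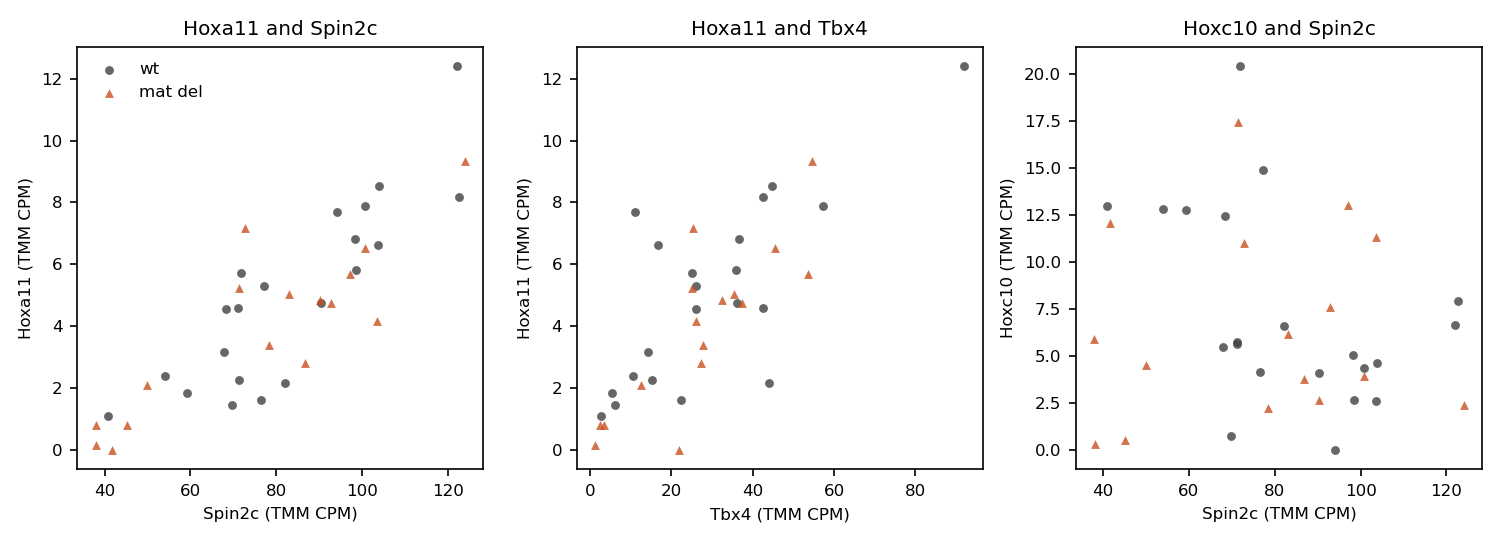
CPM of Hoxa11 against Spin2c and Tbx4 and of Hoxc10 against Spin2c (y and x axes, TMM CPM), with 1 circle per wt and 1 triangle per mat del embryo. Hoxa11 climbs with Spin2c (Spearman 0.84) and Tbx4 (0.71), while Hoxc10 does not climb with Spin2c (-0.18).

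The allantois list as a whole was present in every embryo. Of its 8 genes 7 were well counted, and Vcam1 had 0 counts in 12 of 37 embryos. Its summed level ran from 332 to 688 CPM (median 468) in wt and from 212 to 852 CPM (median 403) in mat del embryos with 6 to 8 somites, and from 209 to 661 CPM (median 367) in wt and from 245 to 547 CPM (median 450.2) in mat del with 9 to 11 somites. The highest value, 852 CPM, was that of mat del replicate 1 at 6 somites, which also had the most Hoxa11 of the mat del embryos (9.34 CPM), 6 of the 7 Hoxb13 counts at 6 somites and the most Hoxc11 of its genotype (2.26 CPM). In wt, replicate 4 at 7 somites had 688 CPM of the list and the most Hoxa11 of all embryos (12.4 CPM). The part of allantois tissue in the Hoxa11 and Hoxc11 values was not tested.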

How the data were processed

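Tailbud RNA of 37 embryos was sequenced as polyadenylated RNA. According to the labels and the methods, the authors trimmed reads with Trim Galore 0.4.4, mapped them to GRCm38.p6 with HISAT2 2.0.5 and quantified genes in SeqMonk. The deposited table of counts holds whole, unnormalised numbers, and a second deposited table holds log2 RPKM of the Hox genes, corrected by the authors for library size and transcript length. How 0 counts were logged is not given in the sources used here. The authors' own means and differences between genotypes in the log2 RPKM table, and their table of p-values and fold changes, were not used. Every column of an embryo was matched to its labels (0 unmatched).

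Of the count rows, 49 that repeated an identifier were dropped and 26 gene names that had become dates were restored. Counts were scaled by TMM, filtered with filterByExpr (minimum count 10) and tested with edgeR 4.0.16 (quasi-likelihood, R 4.3.3), with Benjamini-Hochberg adjustment over all genes and a threshold of 0.05. Log2 CPM for correlations used a prior count of 2. DESeq2 1.42.0 was an alternative, and onset was also read at 0.5 and 2 CPM. Genes under the filter were compared by permutation of CPM (scipy 1.17.1, 100000 resamples where both groups held 10 or more embryos). The fits were tested on simulated data. Intervals and floors cover counting error only, since reads carry no molecular identifiers. Replicates are separate embryos whose litters the labels do not give, so p-values measure the spread between these embryos.

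The genes and lists were chosen with earlier results of these data known. Outside the posterior Hox genes, list genes were named where they passed the threshold or had the 4 smallest p-values of their list, and the nearest genes are the top 5 by Spearman correlation. A few genes are named beyond this rule, having been picked after their values were seen, namely Hoxb9, Hoxc12, Hoxc13, Hottip, Hotair, Vcam1, Pax1, Uncx, Meox2 and the marker genes T, Cdx2, Tbx4 and Spin2c.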

Additional observations from a re-analysis of the deposited data

Results flagged for a closer look

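Within the groups of 4 embryos, 36 sets of CPM values were tested, and in 10 of them 1 embryo stood apart, which means that its gap to the next value took up more of the range than Dixon's 95% limit allows. Chance gives about 1 in 20. Sets in which 3 of 4 embryos had 0 counts pass this limit with any count in the fourth.

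Mat del replicate 1 at 6 somites was high in 3 sets, with 23.1 CPM of Hoxa10 (others 6.58 to 9.18), 2.26 CPM of Hoxc11 (others 0 to 0.140) and 0.904 CPM of Hoxb13 (others 0). This library also had a high ribosomal RNA share and had the highest summed allantois markers. Mat del replicate 3 at 6 somites, the shallowest library, had 12.1 CPM of Hoxc10 (others 2.24 to 3.75), from 11 counts. Wt replicate 1 at 10 somites had 8.17 CPM of Hoxa11 (others 1.83 to 2.39) and 3.67 CPM of Hoxa13 (others 1.97 to 2.23), with the least summed tailbud markers of all embryos, 680 CPM, and 2880 CPM of visceral endoderm markers. Wt replicate 4 at 7 somites had 2.53 CPM of Hoxd10 (others 1.26 to 1.39). The other 3 rest on 1 count each, namely Hoxd12 in wt replicate 4 at 10 somites (0.0678 CPM), and Hoxb13 in wt replicate 3 at 6 somites (0.0830 CPM) and wt replicate 2 at 7 somites (0.329 CPM).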

How the results depend on the processing

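Of the 8 posterior Hox genes that passed the count filter, none was called by genotype under any alternative run (RLE or library-total scaling, DESeq2, no filter, no sex term, female embryos alone, the replicate block, leaving out the pair high in ribosomal RNA, or any embryo left out), in any of the genotype comparisons or in the test of the slopes. The counts of called slopes moved, and the shares of all genes called under each alternative are not given beside them. In wt, where 1 gene was called, DESeq2 called 3, the replicate block 2, and leaving out single embryos 1 to 3 (2 without wt replicate 2 or 4 at 6, 2 at 8 or 3 at 10 somites, and 3 without replicate 1 at 10 somites). In mat del, where 1 gene was called, DESeq2, no filter and no sex term called 2, the replicate block 0, female embryos alone 0, and the fit without the ribosomal RNA pair 0, with 0 to 3 on leaving out single embryos. Hoxc10 in wt passed under each of these (edgeR adjusted p up to 0.0145). The replicate numbers do not pair embryos by design, and the 16 same-numbered pairs of deviations had a median correlation of 0.0114 (over 0.1 in 4).

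Signs turned for values near 0. Hoxc11 over all stages was -0.17 with the replicate block, -0.026 in females, -0.15 without the ribosomal RNA pair and -0.028 by DESeq2, and -0.29 to 0.20 leaving out embryos. At 6 to 8 somites Hoxc10 was 0.20 in females and Hoxd13 0.099 with the block. At 9 to 11 somites Hoxd11 was 0.00022 with the block and 0.065 in females. Leaving out embryos there gave -0.20 to 0.081 for Hoxd11, -0.052 to 0.34 for Hoxa11, -0.31 to 0.014 for Hoxc10 and -0.41 to 0.026 for Hoxd10. The Hoxa11 slope in mat del was -0.027 in females and -0.033 to 0.14 leaving out embryos, and the Hoxc11 slope in wt -0.039 to 0.079.

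For Hoxb13, leaving out embryos gave mean differences of 0.0291 to 0.0530 CPM at 9 to 11 somites (exact permutation p = 0.0440 to 0.181, under 0.05 without mat del replicate 2 at 9 or replicate 2 or 3 at 10 somites), -0.0499 to 0.0771 at 6 to 8 somites, where the negative value is that without mat del replicate 1 at 6 somites, and -0.0680 to 0.0467 between the mat del windows. Asking onset of every embryo left 2 genes on at 6 somites in wt and 2 in mat del. Computing RPKM from counts with a pseudocount of 0.25 gave mean log2 values of -6.88 for Hoxd12 and -5.89 for Hoxb13, against -5.10 and -4.66 as deposited. The causes of these moves were not tested. Depth limits Hoxd12, Hoxb13 and Hoxc11 most, and in the shallowest library the limit that 0 counts allow is 3.27 CPM.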

Other observations

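Some features of these libraries fall outside the comparisons above. Wt replicate 2 at 6 somites had 0 counts of both Hoxc10 and Hoxc11 while it had 145 counts of Hoxa10, 23 of Hoxd10 and 20 of Hoxd11. The limit that 0 counts allow there is 0.394 CPM, below the 0.725 to 5.06 CPM of Hoxc10 in the other 3 embryos of its group. Wt replicate 2 at 11 somites had the most summed tailbud markers of all embryos, 1705 CPM, the least visceral endoderm markers, 4.62 CPM, and 2.67 CPM of Tbx4. It had 12.9 CPM of Hoxc10 but 1.09 CPM of Hoxa11, the lowest Hoxa11 of the wt embryos, while its Hoxa10, at 14.3 CPM, lay within the 10.7 to 25.5 CPM of wt embryos with 9 to 11 somites.

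Summed over the 10 genes, the posterior Hox level ranged from 14.01 to 41.0 CPM in wt and from 15.9 to 43.4 CPM in mat del embryos with 6 somites. At 7 somites it ranged from 24.8 to 57.0 CPM and from 9.73 to 35.7 CPM. At 8 somites it ranged from 30.1 to 53.4 CPM in wt, while the mat del embryos had 4.24 and 46.0 CPM. At 9 somites wt embryos had 35.7 to 58.0 CPM and the mat del embryos 43.3 and 76.3 CPM. At 10 somites the ranges were 28.6 to 52.0 CPM and 22.6 to 58.2 CPM, and at 11 somites 39.7 to 74.7 CPM and 63.5 to 69.7 CPM. The genotypes overlapped at every stage.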
